A study of Mus musculus with 6 samples.

Results

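The genes described here are those that encode the proteins of the cytosolic ribosome and those that build it, in cultured mouse PASMCs, smooth muscle cells of the pulmonary arteries. Members were taken by gene symbol among protein-coding genes: Rpl or Rps followed by a number, and a pattern of names for nucleolar assembly factors and RNA polymerase I subunits (Nop, Nol, Noc, Rrp, Utp and Polr1, with single symbols such as Fbl, Ncl and Npm1). The pattern found 132 of the 21785 genes in the deposited table, of which 74 were ribosomal protein genes and 58 were assembly and RNA polymerase I genes. Rpl10l and Rpl24 were annotated but are not analysed here. Members were chosen by name and by no cut-off on a value, but the set was proposed after the log2 changes of this same comparison had been seen. Its counts and medians are therefore a description and support nothing beyond themselves. All 132 members passed the filter on low values (an average of 1 or more across the libraries), and 72 ribosomal protein and 57 assembly genes had a mean of at least 100.

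A ribosome is made in the nucleolus, where RNA polymerase I transcribes a long precursor of ribosomal RNA. Small nucleolar ribonucleoproteins (snoRNPs) modify this precursor, a large assembly called the small-subunit processome cuts and folds its first section, and a series of further factors matures the large subunit. The ribosomal proteins join along the way. Their messages begin with a terminal oligopyrimidine (TOP) tract through which the growth kinase complex mTORC1 controls their translation, whereas many assembly factor genes are known targets of the transcription factor Myc.

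The cells had grown out of vessel fragments held by iron particles from lungs of C57BL/6 mice after collagenase digestion, so other lung cells could be carried along. They were kept for 48 h without supplements, and 3 samples (stimulated) then received bone morphogenetic proteins BMP9 at 1 ng/mL and BMP10 at 5 ng/mL for 6 h, while 3 samples (control) received neither. Both ligands were given together, so their effects cannot be told apart. Total RNA was sequenced, and the labels do not state if each sample was its own culture or animal, so a p-value reflects the spread among these libraries alone, which may be technical.

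Levels are normalized read counts, and changes are differences of log2(value + 1), stimulated minus control, with the standard error (SE). A gene was called when limma's Benjamini-Hochberg adjusted p over all 21743 genes tested was under 0.05. Across the whole table, limma called 2905 genes (13.4%), of which 8.61% of those tested rose and 4.75% fell, and the median change of all genes was -0.03. Table totals ran from 27295973 to 31903795 per library. All 8 smooth muscle markers examined were present, with summed levels of 34382 to 53248 in controls and 83819 to 178986 in stimulated samples, and 4 of them rose (Acta2, Tagln, Cnn1 and Lmod1), while Des had a change of -0.43 without a call. The cultures also held other cells: summed levels over 9 endothelial markers were 9772 to 39864 in controls and 7475 to 39226 in stimulated samples, and over 7 epithelial markers 7914 to 35047 and 3220 to 36173, each highest in replicate 2 of both groups. Summed levels over 8 macrophage markers were 95536 to 165299 and 142097 to 215146, and over 6 fibroblast markers 293152 to 400011 and 253523 to 454568. These sums rest largely on a few abundant genes. Among the markers of other cells the fibroblast receptor Pdgfra fell (-1.29, adjusted p = 0.0064) and no other was called. With the replicate block 1 endothelial marker rose and 3 fell, 1 macrophage marker rose, and 1 epithelial marker rose and 1 fell. In that fit 1 fibroblast marker fell and 5 smooth muscle markers rose, beside 14.9% of all genes that rose and 12% that fell. The part of these cells in the results below was not tested. No marker was at 0. In such bulk samples fewer cells of a type and less RNA per cell cannot be told apart.

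The 2 classes were counted apart, and the difference between them is given as a description without a test. Among the 58 assembly and RNA polymerase I genes 19 rose (beside 8.61% of all genes) and 2 fell (beside 4.75%), with a median change of 0.33 and 52 of 58 above 0. With a library left out the rises numbered 10 to 16 and the falls 0 to 1. Removing control replicate 1 left 12 rises, removing control replicate 3 left 11 and removing stimulated replicate 3 left 10, each with 0 falls. These fits called fewer genes of the whole table too: 1164 of 21725, 1163 of 21726 and 917 of 21678 in either direction. With all libraries 2905 of 21743 were called. Among the 74 ribosomal protein genes 0 rose and 1 fell with limma, with a median of -0.10, and at an unadjusted p under 0.05 the counts were 0 higher and 10 lower, beside 15.5% and 13.2% of all genes. The medians of the 2 classes thus lay 0.43 apart on the log2 scale. Of the ribosomal protein genes 62 (83.8%) had an estimate within 0.2 of 0, against 32.0% of all genes tested and 43.1% of genes with a mean of at least 1000, a level that 70 of the 74 reach. The labels number the replicates alike in both groups, and with the replicate number as a block 32 assembly genes rose and 2 fell, beside 14.9% and 12% of all genes, and 0 ribosomal protein genes rose and 6 fell.

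**Figure D1:**
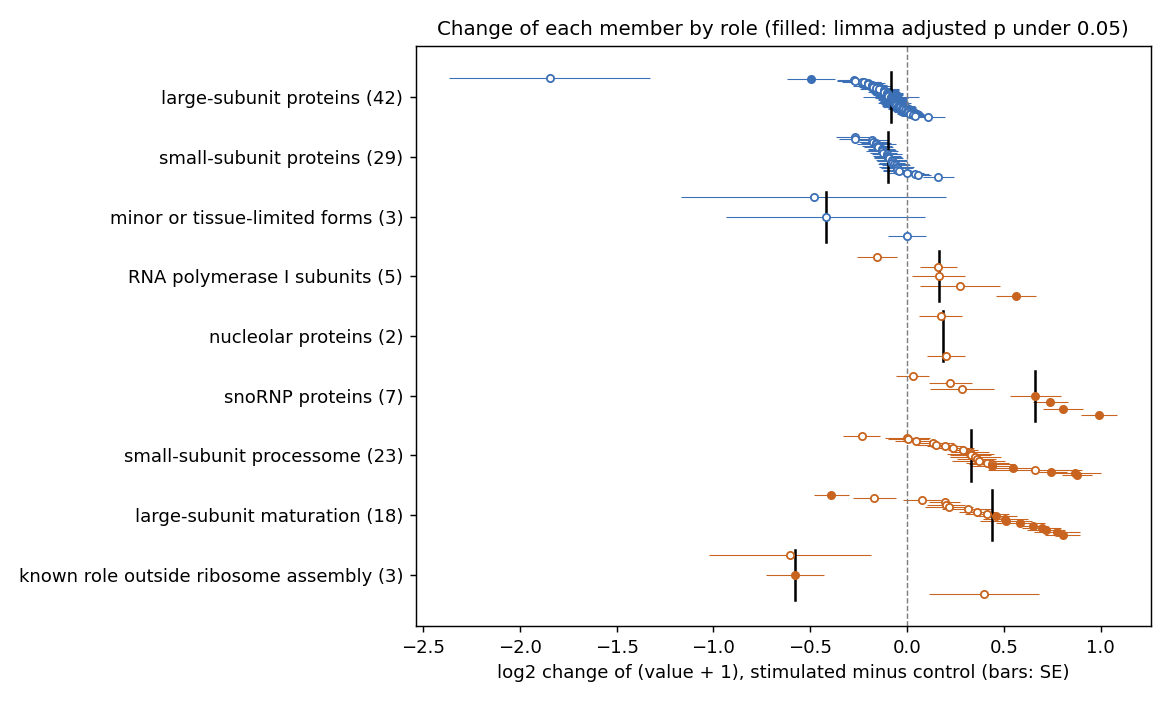
Log2 change of each of the 132 members (x axis, stimulated minus control, bars are SE) by role (y axis, number of members in brackets); blue circles are ribosomal protein genes, orange circles assembly and RNA polymerase I genes, filled circles are called and black lines are medians. The snoRNP, processome and large-subunit maturation groups lie mostly above 0, and the ribosomal proteins lie in a narrow band just below 0, with Rpl23a at -1.85 apart from it.

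The snoRNP proteins held the largest rise of the set. Of 7 members 4 rose and none fell (beside 8.61% and 4.75% of all genes), with a median change of 0.66. Nop58 (ENSMUSG00000026020, chromosome 1, 59684971 to 59719044, plus strand, GENCODE M21 on mm10), a core protein of the box C/D particles that guide methylation of ribosomal RNA, read 1793, 1755 and 1884 in control replicates 1, 2 and 3 and 3223, 3823 and 3791 in stimulated replicates 1, 2 and 3. Every stimulated library lay above every control. Its mean went from 1811 ± 66.3 to 3612 ± 338 (SD, n = 3 each), a change of 0.99 ± 0.09 (limma adjusted p = 0.0015).

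Nop56, its partner in the same particle, read 1386, 1303 and 1310 in controls and 2194, 2440 and 2064 in stimulated samples, a change of 0.74 ± 0.09 (adjusted p = 0.0040). Nolc1, a chaperone of both snoRNP families, read 1710, 1511 and 1771 against 2766, 3239 and 2726, a change of 0.80 ± 0.10 (adjusted p = 0.0049). For both genes the groups were well apart, with stimulated replicate 2 the highest. Gar1, of the box H/ACA particle that guides pseudouridylation, read 358, 299 and 367 against 483, 572 and 567, a change of 0.66 ± 0.13 (adjusted p = 0.0200). The enzymes of both particles were not called. Fbl, the box C/D methyltransferase, had means of 530 ± 23.0 and 621 ± 64.9 (0.22 ± 0.11, adjusted p = 0.241), and Dkc1, the H/ACA pseudouridine synthase, 472 ± 27.0 and 584 ± 129 (0.29 ± 0.17, adjusted p = 0.314). Nop10, a small H/ACA protein, had a change of 0.03 ± 0.09.

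Of 23 small-subunit processome genes 5 rose and none fell, beside 8.61% and 4.75% of all genes (median 0.33, 22 of 23 above 0). Wdr43 (ENSMUSG00000041057, chromosome 17, 71615895 to 71659031, plus strand), a subunit of the complex that first binds the precursor RNA, read 1649, 1579 and 1706 in controls and 2893, 3132 and 3038 in stimulated samples. The spread within each group was small beside the gap between them, and the change was 0.88 ± 0.08 (adjusted p = 0.0012), the smallest adjusted p of all members. Utp18, of a second early complex, read 993, 891 and 953 against 1567, 1573 and 1615 (0.75 ± 0.08, adjusted p = 0.0028).

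Nol10 read 595, 451 and 560 against 1058, 896 and 966 (0.87 ± 0.13, adjusted p = 0.0084). In both groups replicate 2 was the lowest library for this gene, and the groups did not overlap. Utp4, of the same complex as Wdr43, rose by 0.55 ± 0.11 (adjusted p = 0.0196), and Imp4, a protein of the U3 snoRNP, by 0.44 ± 0.11 (adjusted p = 0.0409). Imp3, the partner of Imp4 in that particle, had means of 924 ± 26.5 and 930 ± 127 and a change of 0.00 ± 0.12. With the replicate block 15 processome genes rose, in a fit where 14.9% of all genes rose. Among them were Utp15 (0.44 ± 0.12, adjusted p = 0.0548 without the block and 0.0064 with it) and Rrp9, a further U3 protein (0.41 ± 0.11, 0.0530 and 0.0252). Utp14b, with 167, 292 and 172 in controls and 276, 364 and 333 in stimulated samples, had a change of 0.66 with overlapping groups (adjusted p = 0.123; 0.0175 with the block). Nol7 had the lowest change of the group, -0.23 ± 0.09 (adjusted p = 0.152).

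Among 18 genes of large-subunit maturation 9 rose and 1 fell, beside 8.61% and 4.75% of all genes (median 0.44). Ddx21, an RNA helicase that acts both at RNA polymerase I and on the precursor RNA, read 3763, 3372 and 3568 in controls and 5453, 6604 and 5612 in stimulated samples. Its change was 0.72 ± 0.10 (adjusted p = 0.0057) with no overlap. Rrp8, a methyltransferase of the large-subunit RNA, read 897, 899 and 888 against 1477, 1710 and 1510 (0.80 ± 0.09, adjusted p = 0.0029). Its 3 controls differed by little (SD 5.86). Rrp12, a factor in the export of pre-ribosomes, changed by 0.77 ± 0.12, and Nip7, which acts in large-subunit assembly, by 0.70 ± 0.10. Nol9, a kinase that processes the spacer of the precursor, changed by 0.65 ± 0.08. The remaining rises were Nop2, an RNA methyltransferase (0.59), Rrp15 (0.51), Rrp1b (0.51) and Nol8 (0.46).

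The trio of Pes1, Bop1 and Wdr12, which works as 1 complex in large-subunit maturation, was not called. Pes1 had means of 2460 ± 154 and 2814 ± 80.9 (0.20 ± 0.08, adjusted p = 0.161) and Wdr12 had 859 ± 96.4 and 998 ± 108 (0.22 ± 0.13, adjusted p = 0.311). Bop1, with 1235, 1098 and 1140 against 1456, 1631 and 1388, missed the threshold (0.36 ± 0.10, adjusted p = 0.0530) and passed it with the replicate block (0.0244). Nop53 (chromosome 7, 15936183 to 15946074, minus strand), which recruits the RNA exosome to the maturing large subunit, went the other way. It read 2997, 3108 and 3076 in controls and 2192, 2612 and 2219 in stimulated samples, with no overlap. The change was -0.39 ± 0.09 (adjusted p = 0.0343). The call held in 1 of 6 fits with a library left out, with adjusted p from 0.0187 to 0.135.

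**Figure D2:**
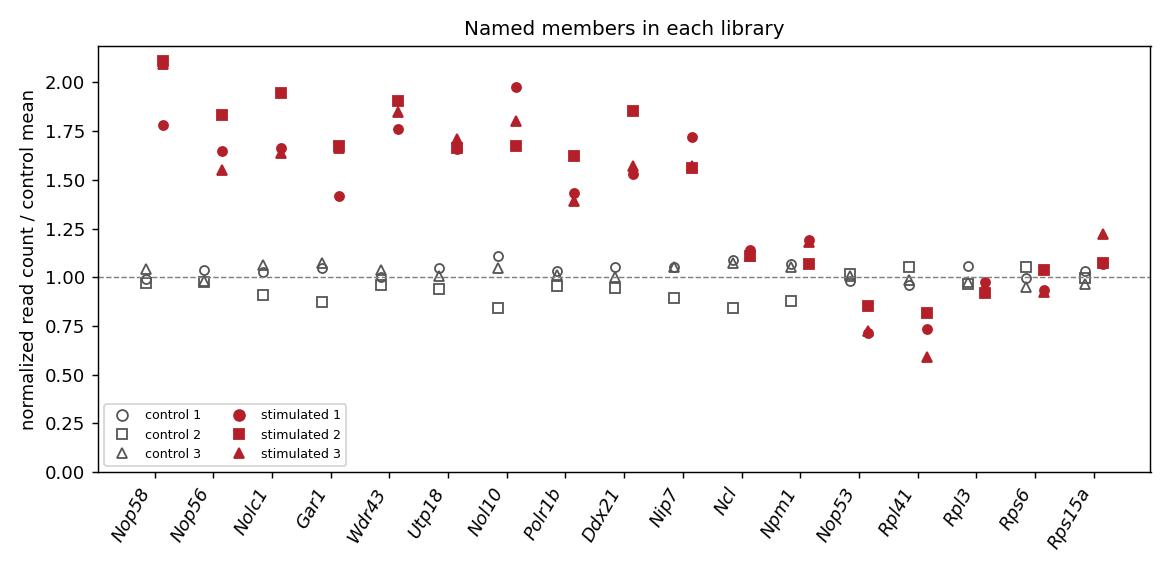
Normalized read count of named members in each library divided by the mean of the 3 controls (y axis, from 0), with genes on the x axis; grey open symbols are controls, red filled symbols stimulated samples, and circles, squares and triangles replicates 1, 2 and 3. Nop58 to Nip7 lie above all controls in the 3 stimulated libraries, Nop53 and Rpl41 below, and Rpl3 and Rps6 overlap their controls.

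Of the 5 RNA polymerase I subunits that the pattern finds, Polr1b rose. This second-largest subunit read 528, 487 and 518 in controls and 733, 830 and 710 in stimulated samples (0.56 ± 0.10, adjusted p = 0.0152). Polr1a, the largest subunit, overlapped between groups (1792 ± 247 and 2006 ± 260, change 0.16 ± 0.14, adjusted p = 0.487). Polr1c, shared with RNA polymerase III, had a change of -0.16 ± 0.10 (adjusted p = 0.376). Polr1d and Polr1e were not called either.

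The abundant nucleolar proteins did not pass the test. Ncl, nucleolin, a chaperone of the precursor RNA, read 22020, 17027 and 21746 in controls and 23082, 22506 and 22530 in stimulated samples. Npm1, nucleophosmin of the granular zone of the nucleolus, read 14421, 11905 and 14244 against 16113, 14453 and 15979. In both genes the stimulated libraries lay above the controls, and control replicate 2 was the lowest by a wide margin. The changes were 0.17 ± 0.11 for Ncl (adjusted p = 0.362) and 0.20 ± 0.10 for Npm1 (adjusted p = 0.238).

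Nol3, Nol4 and Nol4l match the pattern by name, but their known roles lie outside ribosome assembly. Nol3, an inhibitor of apoptosis in muscle, read 788, 669 and 819 in controls and 582, 526 and 423 in stimulated samples (-0.58 ± 0.15, adjusted p = 0.0466). The groups did not overlap, but 48.2% of its exonic bases overlap a gene on the opposite strand, and the strand setting of the counting is not given in the sources used here. Nol4 was at 11 or less in every library. Nol4l had a change of 0.40 ± 0.28 (adjusted p = 0.412; 0.0404 with the replicate block).

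Ribosomal protein genes varied less between replicates than assembly genes. Per kilobase of exon, their median level in controls was 4178 normalized reads, against 243 for the assembly genes. Their coefficient of variation between replicates had a median of 3.94% in controls and 5.53% in stimulated samples, against 8.92% and 7.47% for assembly genes (members with a mean of at least 100). Of 74 genes 63 had a change below 0, and the quartiles were -0.16 and -0.05. The 29 small-subunit genes had a median of -0.10, with 0 calls (3 lower and 0 higher at an unadjusted p under 0.05), and the 42 large-subunit genes had -0.08, with 1 call. Stimulated libraries were all below the controls for 24 ribosomal protein genes (15.4% of all genes tested) and all above for 1 (17.8%). For the assembly genes these counts were 3 and 38. Within the 3 numbered pairs, 44 ribosomal protein genes were lower in every pair and 2 higher (28.2% and 27.2% of all genes), and the pair medians were -0.11, -0.09 and -0.11. Of the assembly genes 46 were higher in every pair and 5 lower, with pair medians of 0.27, 0.45 and 0.25.

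Rpl41 (ENSMUSG00000093674, chromosome 10, 128548114 to 128549305, minus strand), which encodes the shortest protein of the ribosome, was the member that fell. It read 9915, 10842 and 10179 in controls and 7561, 8436 and 6109 in stimulated samples. The groups did not overlap, and stimulated replicate 3 was the lowest. The change was -0.50 ± 0.12 (adjusted p = 0.0422). The call held in 1 of 6 fits with a library left out (adjusted p from 0.0282 to 0.125) and with the replicate block (0.0079).

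Rpl23a had the lowest estimate, with 327, 458 and 367 in controls and 261, 63 and 70 in stimulated samples (-1.85 ± 0.52, adjusted p = 0.0604; 0.0241 with the block). Stimulated replicate 1 lay near the controls and the other libraries of its group far below. This value is uncertain, since 80.8% of the 50-base windows of its transcripts also occur in other genes and 59.7% of its exonic bases overlap an opposite-strand gene. Among ribosomal protein genes with a mean of at least 100, the next lowest after Rpl23a and Rpl41 were Rpl13, Rps28, Rps19 and Rpl36, each at -0.27, with adjusted p of 0.0938, 0.118, 0.0698 and 0.110. Rps19, the small-subunit protein best known from Diamond-Blackfan anaemia, read 8671, 8844 and 8027 against 7256, 7339 and 6604, without overlap. Together with Rpl41 and Rpl23a these 4 made up the 6 that fell with the replicate block, where their adjusted p was 0.0170, 0.0347, 0.0160 and 0.0484.

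At the other end, Rps15a of the small subunit read 10488, 10126 and 9796 against 10832, 10881 and 12377 (0.16 ± 0.08, adjusted p = 0.245). It was the ribosomal protein gene with all stimulated libraries above all controls. Rpl39 (0.11), Rps13 (0.06), Rps25 (0.04), Rpl7 (0.04) and Rpl14 (0.03) followed, each with overlapping groups. Rps6, the substrate of S6 kinase downstream of mTORC1, read 7215, 7588 and 6868 against 6757, 7495 and 6666 (-0.05 ± 0.08, adjusted p = 0.726). Rpl3, near the peptidyl transferase centre, had means of 17191 ± 883 and 16317 ± 504 (-0.07 ± 0.07, adjusted p = 0.563).

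Paralogous forms were set beside their main genes. Rps27 had means of 8303 ± 576 and 7909 ± 270 (-0.07 ± 0.08), and Rps27l had 3221 ± 149 and 3230 ± 322 (0.00 ± 0.10). Rpl22 had a change of -0.04 ± 0.08 and Rpl22l1 one of 0.14 ± 0.12, from 707 ± 29.8 to 782 ± 102. Neither pair held a called gene. Rpl3l, known from striated muscle, and Rpl39l, known from testis, were at 11 or less in every library, so no change could be read for them.

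Many ribosomal protein reads could in principle come from related sequences. Of the 50-base windows of their transcripts, a median of 23.1% also occurred in other genes (range 0 to 84%), against 0.761% for assembly genes. The 42 ribosomal protein genes with at least 20% shared windows had a median change of -0.10, and the other 32 one of -0.09.

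Starts of ribosomal protein genes are shown because a TOP tract is the known shared feature of this class. RefSeq promoter windows (GRCm38.p6, 250 bases before to 50 after each start) matched 102 members, 55 of the ribosomal protein and 47 of the assembly class. Capitals mark a run of a C followed by at least 4 pyrimidines that begins within 10 bases of the annotated start, searched on the gene's strand.
Rps6 (chr4:86857353-86857382, minus strand): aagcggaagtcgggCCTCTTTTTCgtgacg
Rps15a (chr7:118116133-118116162, minus strand): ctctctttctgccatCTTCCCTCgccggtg
Rpl35a (chr16:33056467-33056496, plus strand): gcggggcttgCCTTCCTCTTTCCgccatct
Rpl15 (chr14:18270972-18271001, minus strand): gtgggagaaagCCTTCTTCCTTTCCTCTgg
Rpl28 (chr7:4792950-4792979, plus strand): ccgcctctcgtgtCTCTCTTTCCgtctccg
Rps19 (chr7:24884898-24884927, plus strand): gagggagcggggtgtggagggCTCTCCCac
Such a run was found in 65.5% of the 55 ribosomal protein genes and 36.2% of the 47 assembly genes, against 33.3% of the 27025 genes in the promoter table. Among assembly genes it was found in 50% of the 18 that rose and 27.6% of the 29 others. The median longest run was 7 bases for ribosomal protein genes and 4 for all genes. Rps15a and Rps19, at opposite ends of this class by change, both carry a run. A match describes letters and no measured translation.

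Promoters of assembly genes that rose are shown for the E-box CACGTG, the sequence that Myc and Max are known to bind, which was searched in the same windows (the motif reads alike on both strands). Capitals mark it in the 5 risen members that hold it.
Utp18 (chr11:93885769-93885798, minus strand): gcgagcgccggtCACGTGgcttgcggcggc
Wdr43 (chr17:71616220-71616249, plus strand): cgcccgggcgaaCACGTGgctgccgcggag
Nop2 (chr6:125131811-125131840, plus strand): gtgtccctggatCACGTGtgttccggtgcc
Imp4 (chr1:34439696-34439725, plus strand): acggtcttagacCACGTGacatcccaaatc
Utp4 (chr8:106893643-106893672, plus strand): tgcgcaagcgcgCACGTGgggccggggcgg
The motif lay before the annotated start of Utp18, Nop2 and Imp4 and just after that of Wdr43 and Utp4. It was found in 27.8% of the 18 risen assembly genes with a window, 17.2% of the 29 others and 10.9% of ribosomal protein genes, against 8.09% of all genes in the table and 13.02% of genes with a mean of at least 1000. The ETS-type motif CCGGAAG, searched on both strands, was found in 41.8% of ribosomal protein genes and 34.04% of assembly genes, against 9.93% of all genes and 21.5% of those with a mean of at least 1000. It too was split unevenly, with 44.4% of risen and 27.6% of other assembly genes. These 3 features were more frequent among the risen genes in these small groups. A further motif searched, GGCGCC, went the other way, with 16.7% of risen and 20.7% of other assembly genes. No binding was measured here.

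Summed levels were lower in stimulated samples for one class and higher for the other. The ribosomal protein genes summed to 725694, 711707 and 694349 in control replicates 1, 2 and 3 and to 676867, 685180 and 651152 in the stimulated ones, a ratio of group means of 0.944. As a share of the table they were 2.55 ± 0.07% in controls and 2.13 ± 0.08% in stimulated samples. The assembly genes summed to 106179, 90323 and 103771 against 124602, 123294 and 120648, a ratio of 1.23, and their share was 0.358 ± 0.0239% and 0.390 ± 0.0129%. For neither class did the groups overlap in the sums. The stimulated tables had the larger totals, and the ratio of the ribosomal protein shares, 0.838, was accordingly lower than that of the sums.

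**Figure D3:**
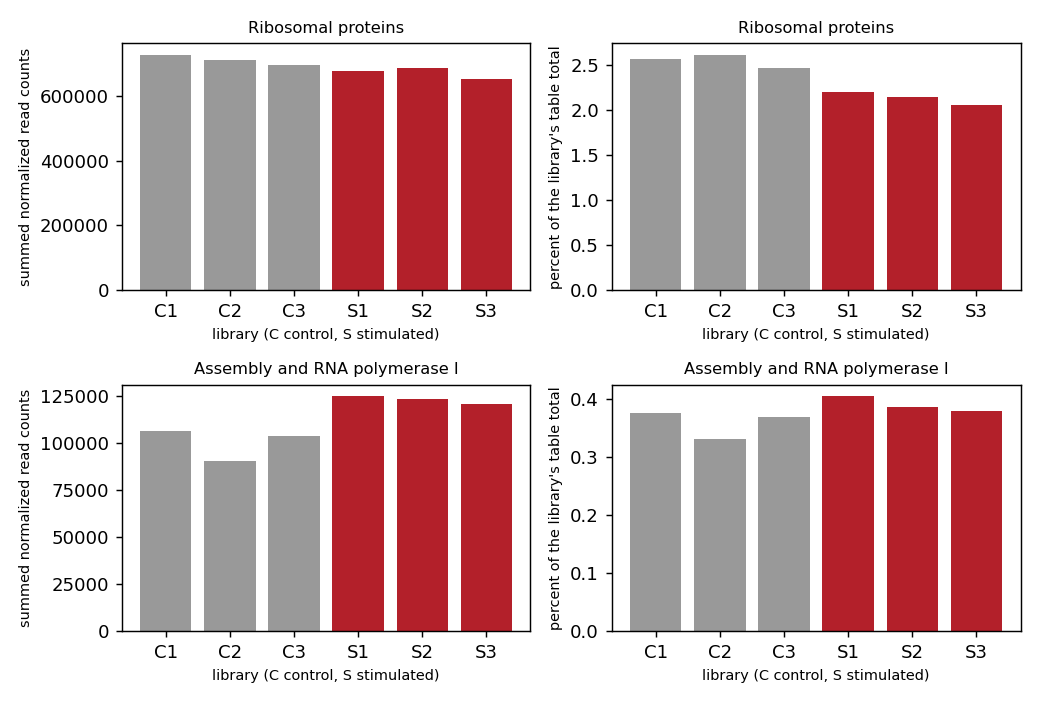
Summed normalized read counts (left) and percent of the library's table total (right) of the 74 ribosomal protein genes (top) and 58 assembly genes (bottom) in each library, controls in grey and stimulated samples in red; all axes start at 0. Ribosomal protein sums run from 694349 to 725694 in controls and from 651152 to 685180 in stimulated samples, and assembly sums are lowest in control replicate 2, at 90323.

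Libraries differed within the control group. Control replicate 2 was the lowest control for 45 of 58 assembly genes, at a median of 0.884 of the other controls, and it also had the highest endothelial and epithelial marker sums of its group. The part of this in the result was not tested. With both replicate 2 libraries left out, 16 assembly genes rose and 1 fell, with a median of 0.28, and the ribosomal protein median was -0.10. That fit called 2398 of 21602 genes in either direction.

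The scaling of the libraries sets where 0 lies for both classes. With each table scaled to equal totals, the median of all genes went to -0.20, and the class medians to -0.27 for ribosomal proteins and 0.16 for assembly genes. At that scaling 0 ribosomal protein genes rose and 27 fell and 13 assembly genes rose and 3 fell (5.22% and 10.4% of all genes). With equal totals and the replicate block together, 58 ribosomal protein genes and 5 assembly genes fell, beside 22.6% of all genes, and 0 and 18 rose, beside 9.4%. Relative to the median of all genes, the ribosomal protein class lay at -0.06 as deposited and at -0.07 with equal totals, and the assembly class at 0.36 under both. A single factor per library shifts all genes alike, so these distances could hardly change with the scaling. Genes with a mean of at least 1000 had a median of 0.11 as deposited, and relative to them the classes lay at -0.21 and 0.22.

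**Figure D4:**
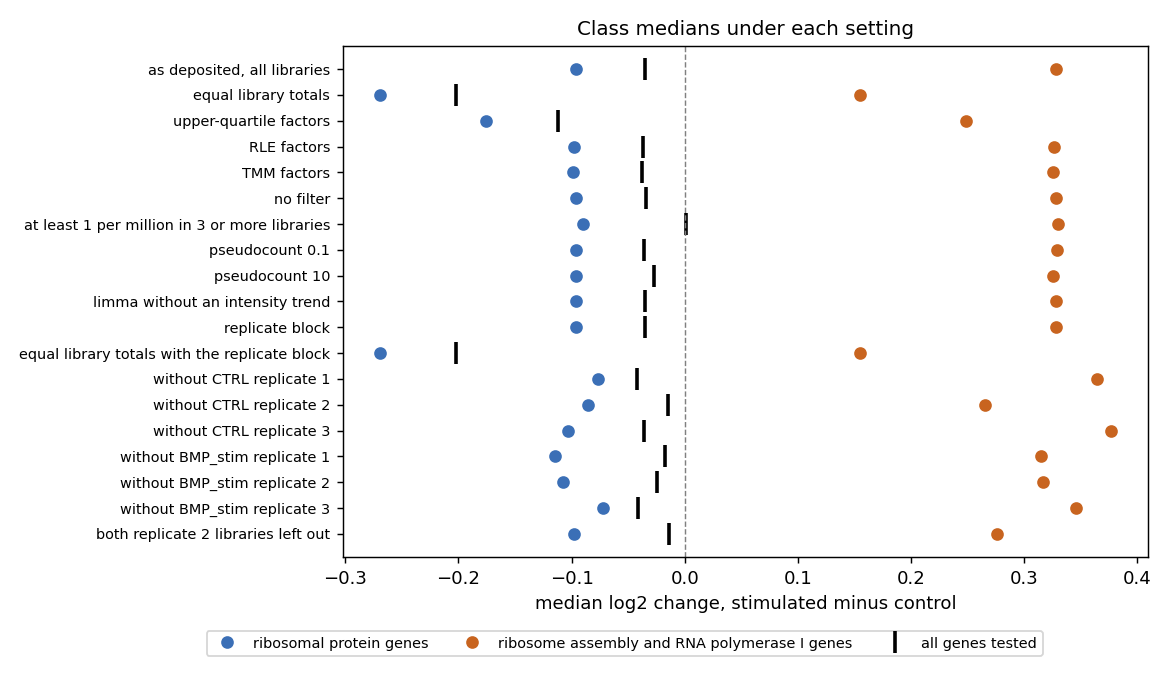
Median log2 change (x axis, stimulated minus control) of the ribosomal protein genes (blue), the assembly genes (orange) and all genes tested (black tick) under each way of processing (y axis). The classes stay apart under each setting, and with equal totals both shift lower together with the median of all genes, to -0.27, 0.16 and -0.20. The distance between the classes could hardly change with the scaling, the block or the trend, so these settings do not test it.

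Genes of the same pathway that the symbol pattern misses were counted from lists written with earlier results of these data known. Beside these counts, 8.61% of all genes rose and 4.75% fell. Of 36 further small-subunit processing genes 18 rose and none fell (median 0.39), and of 47 further large-subunit processing genes 22 rose and none fell (median 0.39). Heatr1, a processome scaffold, read 1248, 1143 and 1181 against 1976, 2132 and 1981 (0.77 ± 0.08, adjusted p = 0.0024), and Mphosph10, a U3 protein, changed by 0.75 ± 0.08. Nmd3, the export adaptor of the large subunit, read 1049, 1005 and 1027 against 1836, 1651 and 1963 (0.82 ± 0.09, adjusted p = 0.0029), and Pak1ip1 changed by 0.75 ± 0.07. Of 12 exosome genes 3 rose and none fell, among them Mphosph6 (1.05 ± 0.12) and the nuclease Dis3 (0.67 ± 0.12), with Exosc1 (0.41 ± 0.10) named after its values were seen.

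Of 11 genes for RNA polymerase I transcription 5 rose and none fell (beside 8.61% and 4.75% of all genes). Cd3eap, an older symbol for a subunit of the enzyme, read 638, 546 and 617 against 1231, 1234 and 1135 (1.00 ± 0.10, adjusted p = 0.0019). Rrn3, the factor that makes the polymerase competent to initiate, read 1620, 1351 and 1589 against 2274, 2216 and 2676 (0.65 ± 0.11, adjusted p = 0.0130). Ubtf, the architectural factor on ribosomal DNA, had a change of 0.31 ± 0.09 and an adjusted p of 0.0722 (0.0271 with the block). Taf1d (0.54), Taf1a (0.51) and Twistnb (0.46) also rose and were named after their values were seen.

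RNA polymerase III makes the 5S ribosomal RNA. Of 10 subunit genes whose symbol is Polr3 followed by a letter, 4 rose and none fell. Across all genes 8.61% rose and 4.75% fell. Polr3d had 703, 782 and 841 in controls and 1827, 1738 and 1816 in stimulated samples (1.21 ± 0.10, adjusted p = 0.0009), with no overlap between groups. Of 11 polymerase III factors 2 rose and 1 fell: Bdp1 changed by 0.68 ± 0.13, Gtf3c4 by 0.31 ± 0.08 and Gtf3c5 by -0.79 ± 0.15. Gtf3c4 was named after its values were seen.

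Other genes of the translation apparatus were counted beside the 8.61% of all genes that rose and the 4.75% that fell. At an unadjusted p under 0.05 these shares were 15.5% and 13.2%. In lists of 12 and 18 genes a count of 0 says little beside them. Of 12 other cytosolic ribosomal proteins with names outside the pattern 0 were called by limma (1 higher and 0 lower at an unadjusted p under 0.05), with a median of -0.05, and Rplp0 of the ribosomal stalk had a change of -0.06 ± 0.08. Of 18 other TOP messages 0 were called (1 higher and 1 lower at an unadjusted p under 0.05; median 0.02). Of 77 mitochondrial ribosomal proteins 3 rose and none fell (median 0.02), with Mrpl47 at 0.53 ± 0.10 and Mrpl3 at 0.36 ± 0.08, and Mrpl20 at 0.30 ± 0.08, which was named after its values were seen.

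Regulators of ribosome production were counted last, beside 8.61% of all genes that rose and 4.75% that fell. With the replicate block these shares were 14.9% and 12%. Of 11 genes of the Myc network 2 rose and none fell (median -0.15, 6 below 0). Myc read 750, 904 and 734 in controls and 1463, 2048 and 1769 in stimulated samples, and the groups were far apart. Its means were 796 ± 93.9 and 1760 ± 293 (1.14 ± 0.15, adjusted p = 0.0049). Its partner Max went from 2182 ± 272 to 3092 ± 154 (0.51 ± 0.11, adjusted p = 0.0268), and Mycn overlapped between groups at 42, 193 and 79 against 24, 124 and 46. With the replicate block 3 genes of this list rose and 4 fell, among them Mycn (-0.73, adjusted p = 0.0259). Of 17 genes around mTORC1 3 rose and 2 fell (median -0.09, 12 below 0). Rheb, the activator of mTORC1, changed by 0.77 ± 0.10, and Larp1, which binds TOP messages, by 0.58 ± 0.09. Rps6kb1, S6 kinase, rose by 0.37, and the mTORC1 inhibitors Sesn1 and Tsc1 had changes of -0.88 and -0.40. Those 3 were named after their values were seen. With the block 3 rose and 5 fell.

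Of the 19 assembly genes that rose, 10 were called under each of the 18 alternatives run, namely Nop58, Nop56, Nolc1, Wdr43, Utp18, Ddx21, Rrp8, Rrp12, Nip7 and Nol9. The other 9 lost the call in at least 1. Imp4, Nol8 and Rrp15 lost it in each of the 6 fits with a library left out, with adjusted p from 0.0505 to 0.142, and Nol10 lost it in 1 (0.0506). Nop58 stayed between 0.82 and 1.07 on the log2 scale over the alternatives, with adjusted p from 0.00036 to 0.0176. Nol3 kept its call in 2 of the 6 fits with a library left out, with adjusted p from 0.0463 to 0.158.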

How the data were processed

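Total RNA of 3 control and 3 stimulated samples was sequenced from stranded libraries of the whole transcriptome, per the labels' protocols. Per the submitters' processing notes, reads were handled with STAR 2.6.1d, Trimmomatic 0.38, DESeq2 1.18.1 and featureCounts 1.6.3 (no order is given), and the builds named are hg38, GRCh38 and mm10. Strandedness in featureCounts and the gene annotation were both not given in the sources used here. The deposited table gives a score per gene and library: whole-number read counts that were scaled by a single factor in each library and rounded again, as the steps in the values show. Reads were not recovered, so no count model was used and depth is known only through these normalized values.

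Changes were fitted with limma 3.58.1 (R 4.3.3, with an intensity trend), pseudocount 1, in 21743 genes averaging 1 or more, treatment as the only term, two-sided, Benjamini-Hochberg threshold 0.05. Changes on this scale understate those of low genes. Of 21785 gene identifiers 21747 matched GENCODE M21. The members and lists were chosen with earlier results of these data known. Genes named are the 6 largest rises and falls per class with a mean of at least 100, called members without overlap, a fixed set, and the 2 smallest p per list; a gene that this rule takes is not reported here. Deviations of same-numbered libraries from their group means correlated by 0.747, 0.741 and 0.218 in 13185 genes averaging 50 or more. Equal numbers were treated as pairs in the pair counts and the replicate block, while the main fit ignores them. For number 3 this rests on a weak correlation. Control replicate 3 correlated more with stimulated replicate 1 (0.287), and what a number stands for is not in the labels. Alternatives were other scalings (equal totals, upper quartile, RLE, TMM), filters, pseudocounts of 0.1 and 10, no trend, the replicate block, and leaving out libraries. A simulation used counts without replicate pairs, fitted with scaling to equal totals, a setting other than that of the main fit. It therefore does not test the calls reported here. Sequences are from RefSeq (GRCm38.p6).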

Additional observations from a re-analysis of the deposited data

How the results depend on the processing

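With the replicate block, 6 ribosomal protein genes fell and 32 assembly genes rose, beside 12% and 14.9% of all genes. Without an intensity trend 0 ribosomal protein genes fell, 12 assembly genes rose and 0 fell, with 1610 of 21743 genes called in either direction. With equal totals 27 ribosomal protein genes fell, beside 10.4% of all genes, with class medians of -0.27 and 0.16. With equal totals and the block 58 fell and 5 assembly genes fell, beside 22.6% of all genes. The medians were the same (-0.27 and 0.16). Upper-quartile factors gave 3 falls of ribosomal protein genes and a median of -0.18, with 2772 of 21723 genes called. Assembly rises numbered 14 there, against 19 in the main fit. A filter of 1 CPM in 3 libraries gave 2 falls of ribosomal protein genes and 26 assembly rises, with 3262 of 14217 genes called. With a library left out, ribosomal protein falls ran from 0 to 1 and their median from -0.115 to -0.0725, assembly rises from 10 to 16, assembly falls from 0 to 1 and their median from 0.265 to 0.377. Those fits called 917 to 2384 genes of the whole table in either direction. Without both replicate 2 libraries 1 assembly gene fell, with 2398 of 21602 genes called. In no setting did a ribosomal protein gene rise. The difference of the class medians moved in none of the 18 alternatives by more than the spread between replicates. Most of these could hardly move it, so they do not test it. A single factor per library shifts both classes alike, and the block and the trend leave the estimates unchanged. Some genes that were not called changed sign, most of them near 0 and Rpl3l and Rpl39l at levels of 11 or less. With equal totals, with and without the block, Imp3 was at -0.17, Polr1a at -0.0085, Rpl14 at -0.14, Rpl22l1 at -0.035, Rpl39 at -0.067, Rpl7 at -0.13, Rps13 at -0.12, Rps15a at -0.011, Rps25 at -0.13 and Rps27l at -0.17. With upper-quartile factors Imp3 was at -0.078, Rpl14 at -0.051, Rpl7 at -0.036, Rps13 at -0.024, Rps25 at -0.036 and Rps27l at -0.079. With RLE factors Imp3 was at -0.000717 and Rps27l at -0.00164, and with TMM factors at -0.00179 and -0.00272. With a library left out, Imp3 ran from -0.106 to 0.0810, Rps27l from -0.0434 to 0.0858, Rpl22 from -0.103 to 0.00432, Rpl3l from -0.783 to 0.00982 and Rpl39l from -0.969 to 0.261. Without both replicate 2 libraries Imp3 was at -0.085 and Rpl39l at 0.069. The cause was not tested. The number of 3 libraries a group limits what can be called, and Rpl3l, Rpl39l and Nol4 are too low to read.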
